A study of Homo sapiens with 6 samples.

Results

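The mitosis and G2/M regulators examined here were 35 mouse genes, chosen by symbol for their function: mitotic cyclins and kinases, spindle checkpoint, kinetochore, spindle and cytokinesis genes, without the kinesin family apart from the motor gene Cenpe. All 35 were found among the 21872 gene rows of the table, and all 35 had enough counts to be tested among 12293 genes. RNA sequencing covered 6 libraries of MOC2 cells, a mouse oral squamous carcinoma line. In 3 of them, called knockout here after their genotype label, the gene for the RNA-binding protein HuR (Elavl1) had been targeted with CRISPR/Cas9, although their titles say knockdown; the other 3 were control libraries, which had received control particles. Both groups were transduced with lentiviral particles at an MOI of 25 for 18 h and were cultured for 72 h more. The protocol in the labels describes 1 isolated clone and names no separate cultures or clones behind the libraries of a group. A p-value here therefore reflects library-to-library spread, which may be technical. If the knockout libraries come from 1 clone, effects of HuR loss and of that clone cannot be told apart. The labels give human as the species, whereas the gene symbols are those of mouse.

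Entry into mitosis is driven by CDK1 bound to A-type and B-type cyclins, which the CDC25 phosphatases switch on. Polo and Aurora kinases then build the spindle, the spindle checkpoint delays anaphase until every kinetochore is attached, and the anaphase-promoting complex ends mitosis by marking cyclin B and securin for destruction. Most of these genes are transcribed late in the cell cycle, in large part under FOXM1, B-MYB and the MuvB complex, and are low in cells that do not divide. Their mRNA levels are therefore widely read as a measure of how much of a culture is cycling.

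Levels are given as CPM, counts scaled to a fixed total per library, with the 3 values of a group in the order of libraries 1, 2 and 3. Totals as deposited lay between 16164136 and 21294330 counts per library. Knockout library 3 stood apart from the other knockout libraries: its log2 CPM correlated with theirs at 0.924 and 0.931 across genes, which are not independent replicates, while knockout libraries 1 and 2 correlated at 0.978 and control libraries at 0.987 to 0.992. Fold changes of the 35 genes are therefore given with and without knockout library 3. Elavl1 itself had 116, 114 and 105 CPM in knockout, against 107, 119.7 and 117 CPM in control. Its log2 fold change was -0.036 (SE 0.111, adjusted p = 0.82 by edgeR) with all libraries and 0.0061 (SE 0.0925, adjusted p = 0.962 by edgeR) without knockout library 3, so its mRNA level neither checks nor contradicts the labels.

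The epithelial identity of the line was checked on 12 markers, whose summed level was 5873 to 8703 CPM in knockout and 11599 to 14187 CPM in control. Of 11 tested, 7 fell and 1 rose, where 15.4% of all genes tested were called lower and 20.3% higher. Among those that fell, the cell adhesion gene Epcam had 55.1, 25.3 and 30.4 CPM in knockout, against 619.5, 504 and 501 CPM in control. The gene that rose was Trp63, with a log2 fold change of 10.1 (adjusted p = 0.0165 by edgeR). A change that large starts from a control level near the floor, so its size is uncertain. It lay between 8.88 and 10.6 when 1 library was left out. Of the 11 tested, 10 were above 0 in every library. Among the markers of other cell types, only a part of the fibroblast list moved with the groups. The 14 fibroblast markers summed to 2800.0 to 5997 CPM in knockout and 10.2 to 21.6 CPM in control, and 7 of the 8 tested rose. Those were Mgp, Col6a2, Pdgfrb, Col6a1, Col3a1, Col1a1 and Fbln1, with log2 fold changes between 1.26 (Fbln1) and 14.4 (Mgp). Over all genes tested, 20.3% were called higher. Yet Col1a2, Dcn, Postn, Thy1 and Fap stayed under 1 CPM in every library and Lum had no count. Of the 8 fibroblast markers tested, 6 were above 0 in every library. The largest of these fold changes start from control levels near 0, so their size is uncertain. That of Mgp lay between 13.8 and 17.1 when 1 library was left out. The 8 endothelial markers all stayed under 1 CPM. The 10 immune markers summed to 3.27, 1.76 and 37.0 CPM in knockout, against 6.51, 2.41 and 3.89 CPM in control. Nearly all of the value in knockout library 3 came from the lysosomal gene Cd68, at 36.9 CPM, while the pan-leukocyte gene Ptprc was at 0 in every knockout library. The part of these differences in the results below was not tested.

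Almost every mitosis and G2/M gene was far lower in knockout library 3 than in any other library, whereas in knockout libraries 1 and 2 most of them were modestly below control. Summed over the 35 genes, the level was 4964, 4635 and 1062 CPM in knockout, against 5996, 5771 and 5856 CPM in control. The median gene stood at 16.2% of its control mean in knockout library 3, and the mean of knockout libraries 1 and 2 stood at 83.3% of it. Knockout library 3 was the lowest of the 6 libraries for 34 of the 35 genes (97.1%), where 31.8% of all genes tested had it lowest. The exception was Pttg1, for which it was the highest, as for 33.7% of all genes. In bulk RNA, fewer cells in G2 and M phase and less of a transcript per cell cannot be told apart.

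**Figure D1:**
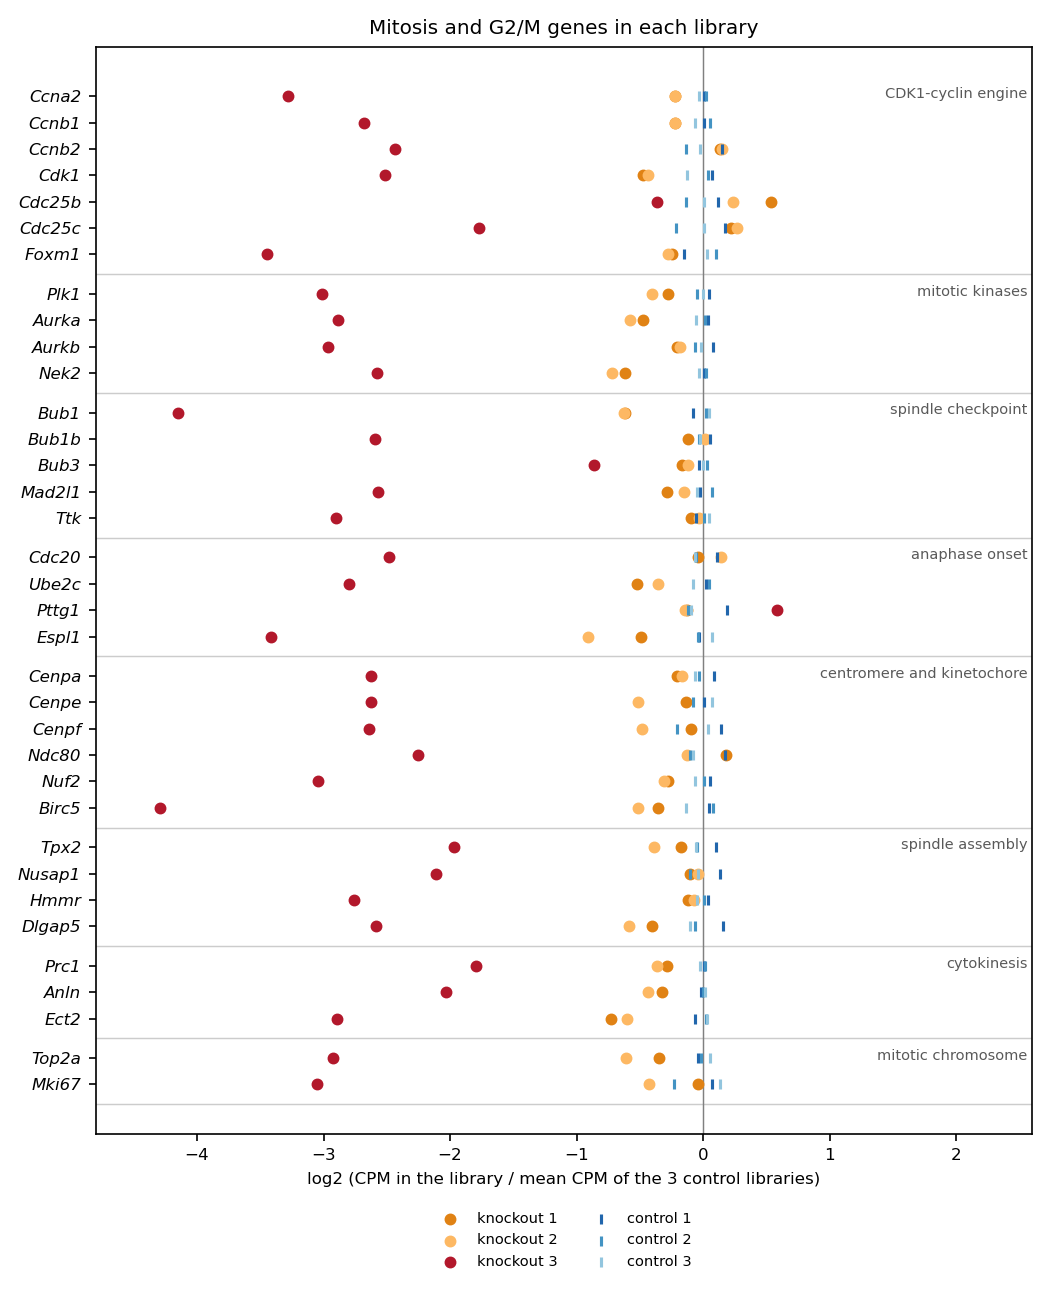
Level of each of the 35 genes in each library, as log2 of its CPM over the mean CPM of the 3 control libraries (x axis), with genes grouped by role down the page; filled circles are knockout libraries and vertical ticks control libraries. Knockout library 3 lies to the left of every other library for 34 genes and to the right for Pttg1, while knockout libraries 1 and 2 lie closer to the control ticks.

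No gene of the set passed the test of all 3 knockout against all 3 control libraries. Of 35 genes, 0 were called at an adjusted p under 0.05 by edgeR's quasi-likelihood test, where 35.7% of all 12293 genes tested were called, and 0 had an unadjusted p under 0.05. DESeq2 called 1 (Nek2, adjusted p = 0.0474), where it called 43% of all genes, and limma-voom 0, where it called 34.9%. The median log2 fold change of the set was -0.71, against 0.03 over all genes tested, and 33 of the 35 estimates were below 0. The standard errors were large, with a median of 0.563 on the log2 scale against 0.221 over all genes. The coefficient of variation of CPM, median over the set, was 65.0% among knockout and 4.69% among control libraries; over all genes tested the medians were 22.8% and 9.01%. No member was called either when other choices of scaling, filter or block were made or when 1 library other than knockout library 3 was left out. The share of all genes called was then 34.6% on the values as deposited, 35.4% without the divided rows, 35.6% with RLE scaling, 35.5% with library totals, 26.8% with no filter and 29.2% with a replicate block. It was 35.2% and 28.5% without knockout library 1 or 2, and 21.5%, 18.4% and 18.8% without control library 1, 2 or 3.

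With knockout library 3 set aside, 14 of the 35 genes fell and 1 rose in knockout libraries 1 and 2 against control, and 20 did not pass. Among all genes tested without that library, 22.8% were called lower and 25.5% higher. The 14 decreases lay between 1.22-fold and 1.61-fold, and the median log2 fold change of the set was -0.26, against 0.025 over all genes. In 25 of the 35 genes (71.4%) both libraries lay below all 3 control libraries, where 33.7% of all genes did, and in 2 genes (5.71%), Cdc25b and Cdc25c, both lay above, where 36.5% of all genes did. With library 3 kept, 24 of the 35 (68.6%) had every knockout library below every control library, against 27.9% of all genes, and 0 had every one above, against 29.7%. These tests rest on 2 knockout libraries, and the third was set aside for its difference from them, which lowers the spread. Without library 3, DESeq2 called 18 of the 35 lower and limma-voom 15, where they called 24.8% and 23.1% of all genes lower. RLE scaling gave 18 and library totals 15, beside 23.8% and 22.8% of all genes. Beyond the 14, Ccna2 was called lower in each of these, and Ccnb1, Foxm1 and Tpx2 under DESeq2 and RLE scaling. Under these 4 settings Cdc25b was the 1 gene higher, where 24.8%, 26%, 24.7% and 25.5% of all genes were. When control library 1, 2 or 3 was left out as well, 14, 13 and 12 genes were lower, beside 20.8%, 18.5% and 17.4% of all genes, and 1, 0 and 0 were higher, beside 23.2%, 19.6% and 19.5%.

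**Figure D2:**
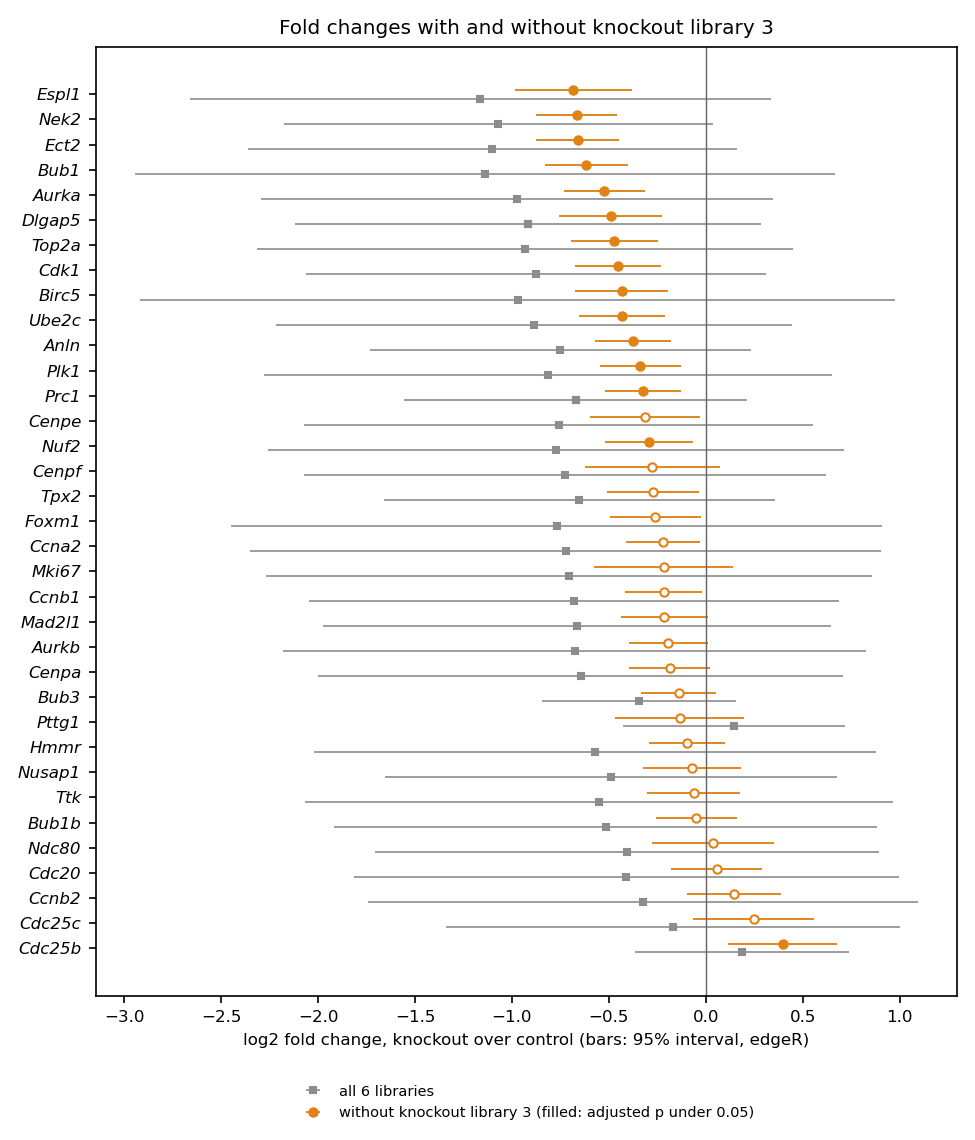
Log2 fold change of each gene, knockout over control, with a 95% interval computed from the edgeR test (x axis), for all 6 libraries (grey squares) and without knockout library 3 (orange circles, filled where the adjusted p was under 0.05). All 35 grey intervals include 0, which restates that no unadjusted p was under 0.05. The 15 filled circles are the 14 genes that fell and Cdc25b, which rose.

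The genes of the CDK1-cyclin engine split into a group slightly below control and a group at or above it in knockout libraries 1 and 2. In knockout library 3, 5 of the 7 were under a 4th of the control mean, as were 9.14% of all genes tested. Cdk1, the kinase that drives mitosis, had 141, 145 and 34.3 CPM in knockout, against 206, 202 and 180.2 CPM in control. Without knockout library 3 it fell 1.37-fold, with a log2 fold change of -0.45 (SE 0.0966, adjusted p = 0.00538 by edgeR), and in library 3 it was 5.72-fold below the control mean. The 2 groups of Cdk1 did not overlap. Ccna2, the cyclin of S and G2 phase, had 210.4, 209.8 and 25.3 CPM in knockout, against 247, 249 and 239.6 CPM in control. Ccnb1, the main mitotic cyclin, had 188, 188 and 34.1 CPM in knockout, against 220.0, 227 and 209.8 CPM in control. Both had every knockout library below every control library. Without library 3 their log2 fold changes of -0.22 and -0.22 missed the threshold, at an adjusted p by edgeR of 0.0567 for Ccna2 and 0.0675 for Ccnb1. Both calls depended on the method. Ccna2 passed under DESeq2 (adjusted p = 0.00602), limma-voom (0.0483), and edgeR with RLE scaling (0.0407) or library totals (0.0465). Ccnb1 passed under DESeq2 (adjusted p = 0.0146) and edgeR with RLE scaling (0.0488). The second mitotic cyclin gene, Ccnb2, had 134, 135 and 22.5 CPM in knockout, against 135, 111 and 119 CPM in control. Its groups overlapped, with knockout libraries 1 and 2 level with the highest control library and library 3 5.41-fold below the control mean.

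Foxm1, the transcription factor of many G2/M genes, was among the genes with the deepest drop, with 124, 121 and 13.5 CPM in knockout, against 132, 157 and 150.2 CPM in control, which placed library 3 10.9-fold below the control mean. Libraries 1 and 2 were also under the lowest control library. Its log2 fold change without library 3 was -0.26 (SE 0.102, adjusted p = 0.0639 by edgeR). Foxm1 passed there under DESeq2 (adjusted p = 0.0332) and edgeR with RLE scaling (0.0482). Of the genes of the phosphatases that activate CDK1, Cdc25b had 117, 94.7 and 62.7 CPM in knockout, against 87.5, 73.3 and 80.8 CPM in control. It was the 1 gene of the set that rose without library 3, with a log2 fold change of 0.40 (SE 0.123, adjusted p = 0.0283 by edgeR). That call was lost when control library 2 or 3 was left out as well (adjusted p = 0.119 and 0.0909 by edgeR), and library 3 was only 1.28-fold below the control mean. Cdc25c had 33.2, 34.2 and 8.33 CPM in knockout, against 32.2, 24.6 and 28.6 CPM in control, so that both of the first 2 knockout libraries lay above all control libraries by a margin that did not pass (log2 fold change 0.25, adjusted p = 0.17 by edgeR), and library 3 was 3.42-fold below the control mean. With all libraries the log2 fold changes of these 7 genes lay between -0.88 (Cdk1) and 0.18 (Cdc25b), with adjusted p between 0.21 and 0.809 by edgeR.

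All 4 mitotic kinase genes had every knockout library below every control library, as 27.9% of all genes tested did. Of the 4, 3 fell without knockout library 3, where 22.8% of all genes tested were called lower. Nek2, a kinase of centrosome separation, had 70.9, 66.3 and 18.3 CPM in knockout, against 109, 111 and 107 CPM in control. The knockout libraries of Nek2 all lay far under the narrow control range. It had the lowest adjusted p of the set with all libraries, at a log2 fold change of -1.07 (SE 0.462, adjusted p = 0.117 by edgeR). It fell 1.59-fold without library 3, with a log2 fold change of -0.67 (SE 0.0917, adjusted p = 0.000674 by edgeR). Aurka, the Aurora kinase of the spindle poles, had 93.3, 86.9 and 17.6 CPM in knockout, against 133, 131 and 124 CPM in control. It fell 1.44-fold without library 3, where its log2 fold change was -0.52 (SE 0.0917, adjusted p = 0.00214 by edgeR). In both Nek2 and Aurka, library 3 was also well under the other knockout libraries. Plk1, the polo-like kinase, had 174, 159 and 26.2 CPM in knockout, against 218, 204 and 211 CPM in control. Its decrease of 1.26-fold without library 3 passed (adjusted p = 0.0154 by edgeR) but no longer did when control library 3 was left out too (0.0535). Aurkb, the Aurora kinase of the chromosomal passenger complex, had 138, 141 and 20.4 CPM in knockout, against 168, 153 and 157 CPM in control, and its log2 fold change of -0.19 (95% interval -0.40 to 0.012, adjusted p = 0.107 by edgeR) did not pass. With library 3 kept, none of the 4 passed, at log2 fold changes between -1.07 (Nek2) and -0.68 (Aurkb) and an adjusted p between 0.117 and 0.435 by edgeR.

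Of the 5 spindle checkpoint genes, Bub1 fell without knockout library 3 and the others did not pass. With 1 of 5 called lower, the count was near the 22.8% over all genes tested. Bub1, a kinetochore kinase, had 65.3, 64.9 and 5.63 CPM in knockout, against 94.8, 102 and 103 CPM in control. Knockout library 3 held 92 counts of it, 17.7-fold below the control mean, and knockout libraries 1 and 2 lay within 1 CPM of each other. Without library 3 Bub1 fell 1.53-fold, with a log2 fold change of -0.62 (SE 0.0936, adjusted p = 0.00109 by edgeR). Bub3, which encodes a small WD-repeat protein that also acts outside mitosis, had 173, 178 and 106 CPM in knockout, against 189, 198 and 194 CPM in control. Its groups did not overlap either, yet library 3 was only 1.82-fold below the control mean, and the log2 fold change was -0.34 (SE 0.208, adjusted p = 0.239 by edgeR) with all libraries and -0.14 (95% interval -0.33 to 0.054, adjusted p = 0.204 by edgeR) without library 3.

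The remaining checkpoint genes did not pass without knockout library 3 either. Bub1b, which encodes the checkpoint protein BUBR1, had 124, 135 and 22.2 CPM in knockout, against 139, 131 and 132 CPM in control, and Ttk, the checkpoint kinase MPS1, had 36.8, 38.5 and 5.27 CPM in knockout, against 37.9, 39.6 and 40.7 CPM in control. Without library 3 their log2 fold changes were -0.049 (95% interval -0.26 to 0.16, adjusted p = 0.682 by edgeR) and -0.063 (95% interval -0.30 to 0.18, adjusted p = 0.649 by edgeR). Mad2l1, which encodes MAD2, the inhibitor of CDC20, had 64.4, 70.9 and 13.2 CPM in knockout, against 77.2, 82.3 and 76.1 CPM in control, with the groups apart but a log2 fold change of -0.22 (95% interval -0.44 to 0.0099, adjusted p = 0.102 by edgeR) without library 3. In library 3 these 3 genes were 6.05-fold, 7.48-fold and 5.94-fold below their control means. Over all 6 libraries the 5 checkpoint genes had log2 fold changes between -1.14 (Bub1) and -0.34 (Bub3), with adjusted p between 0.239 and 0.529 by edgeR.

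**Figure D3:**
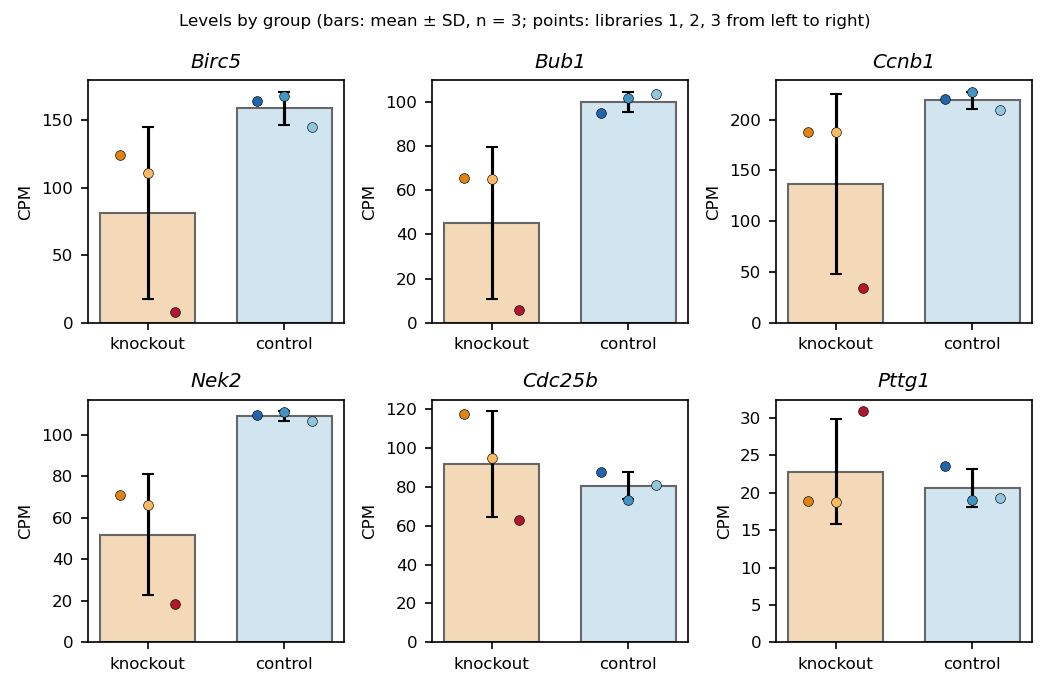
CPM of 6 genes in knockout (left bar) and control (right bar); bars are means with SD (n = 3) and points are libraries 1, 2 and 3 from left to right. In Birc5, Bub1, Ccnb1 and Nek2 the third knockout point lies near the floor of the plot, in Cdc25b it is the lowest by a smaller margin, and in Pttg1 it is the highest.

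The genes of anaphase onset held both large decreases and the single gene that was highest in knockout library 3. Espl1, which encodes separase, the protease that cuts cohesin, had 71.7, 53.8 and 9.43 CPM in knockout, against 98.6, 98.2 and 106 CPM in control. It fell 1.61-fold without library 3, the largest of the 14 decreases, with a log2 fold change of -0.68 (SE 0.132, adjusted p = 0.00346 by edgeR). Ube2c, the ubiquitin-conjugating enzyme of the anaphase-promoting complex, had 168, 189 and 34.6 CPM in knockout, against 245, 249.8 and 228 CPM in control. Knockout libraries 1 and 2 stayed apart from control, and library 3 was far below both. Ube2c fell 1.35-fold without library 3, with a log2 fold change of -0.43 (SE 0.0964, adjusted p = 0.00669 by edgeR). Cdc20, the activator of that complex, had 186, 212 and 34.2 CPM in knockout, against 207, 185 and 183 CPM in control. Knockout libraries 1 and 2 overlapped control here, with a log2 fold change of 0.056 (95% interval -0.18 to 0.29, adjusted p = 0.676 by edgeR), and library 3 was 5.6-fold below the control mean.

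Pttg1, which encodes securin, the inhibitor of separase, had 18.9, 18.7 and 30.9 CPM in knockout, against 23.5, 19.1 and 19.3 CPM in control. Library 3 was thus above every other library, at 149.8% of the control mean, while libraries 1 and 2 lay just under the lowest control library. Its log2 fold change was 0.14 (SE 0.239, adjusted p = 0.665 by edgeR) with all libraries and -0.14 (95% interval -0.47 to 0.20, adjusted p = 0.47 by edgeR) without library 3, and neither passed. Within knockout library 3, securin and separase mRNA therefore stood on opposite sides of their control levels. With 1 such library, the difference has no replicate check. When all libraries were kept, the 4 genes of anaphase onset lay between -1.16 (Espl1) and 0.14 (Pttg1) on the log2 scale, with adjusted p between 0.192 and 0.665 by edgeR.

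Centromere and kinetochore genes were 4.77-fold to 19.6-fold below their control means in knockout library 3. Without that library 2 of the 6 fell, where 22.8% of all genes tested were called lower. Birc5, which encodes survivin, a subunit of the chromosomal passenger complex, had 124, 111 and 8.08 CPM in knockout, against 164, 167 and 145 CPM in control. Library 3 was 19.6-fold below the control mean, the deepest drop of the 35 genes, and 14.5-fold below the mean of knockout libraries 1 and 2. All 3 knockout libraries were under the lowest control library. Birc5 also fell 1.35-fold without library 3, with a log2 fold change of -0.43 (SE 0.105, adjusted p = 0.0098 by edgeR). Nuf2, a subunit of the NDC80 complex that binds microtubules, had 47.7, 46.5 and 6.98 CPM in knockout, against 59.95, 58.1 and 55.1 CPM in control. Its decrease without library 3, a log2 fold change of -0.29 (SE 0.0994, adjusted p = 0.0399 by edgeR), passed. It was lost when control library 1, 2 or 3 was left out as well (adjusted p = 0.0859, 0.0891 and 0.0667 by edgeR). Ndc80, its partner in that complex, had 58.0, 46.8 and 10.7 CPM in knockout, against 57.6, 47.5 and 48.3 CPM in control. The Ndc80 groups overlapped, and the log2 fold change without library 3 was 0.037 (95% interval -0.28 to 0.35, adjusted p = 0.84 by edgeR).

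The other 3 genes of this role were lower in libraries 1 and 2 by margins that did not pass. Cenpa, the histone H3 variant of centromeres, had 115, 118 and 21.5 CPM in knockout, against 141, 130.1 and 127 CPM in control. Cenpe, a kinetochore kinesin, had 130.3, 100.3 and 23.2 CPM in knockout, against 144, 136 and 150.3 CPM in control. Cenpf, a large kinetochore protein, had 132, 101 and 22.7 CPM in knockout, against 156, 122 and 146 CPM in control. Cenpa and Cenpe had every knockout library below every control library, whereas for Cenpf knockout library 1 lay within the control range. Without library 3 the log2 fold change (with its adjusted p by edgeR) was -0.19 (0.125) for Cenpa, -0.31 (0.0673) for Cenpe and -0.28 (0.163) for Cenpf. The 6 genes of this role, with library 3 kept, had log2 fold changes between -0.97 (Birc5) and -0.41 (Ndc80) and an adjusted p between 0.318 and 0.589 by edgeR.

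Among the spindle assembly genes, 1 of 4 fell without knockout library 3, near the 22.8% over all genes tested. In library 3 the 4 genes were 3.91-fold to 6.75-fold below their control means. Tpx2, the activator of Aurora A on the spindle, had 199, 172 and 57.3 CPM in knockout, against 240.1, 216 and 216 CPM in control. Its groups did not overlap, and without library 3 the log2 fold change was -0.27 (SE 0.103, adjusted p = 0.0569 by edgeR). Tpx2 passed there under DESeq2 (adjusted p = 0.0294) and edgeR with RLE scaling (0.0471). Dlgap5, which encodes the spindle protein HURP, had 89.1, 78.3 and 19.7 CPM in knockout, against 131, 113 and 109 CPM in control. It fell 1.41-fold without library 3, with a log2 fold change of -0.49 (SE 0.115, adjusted p = 0.00852 by edgeR). Library 3 of Dlgap5 was again the lowest, and libraries 1 and 2 lay clear of control. Hmmr, a spindle-associated hyaluronan receptor, had 126, 130.3 and 20.3 CPM in knockout, against 141, 138 and 133 CPM in control. Nusap1, a microtubule-bundling protein, had 51.6, 53.9 and 12.9 CPM in knockout, against 60.8, 51.7 and 53.8 CPM in control. The groups of Hmmr lay just apart and those of Nusap1 overlapped, with log2 fold changes of -0.097 (95% interval -0.29 to 0.10, adjusted p = 0.383 by edgeR) and -0.071 (95% interval -0.32 to 0.18, adjusted p = 0.622 by edgeR) without library 3. From all 6 libraries the 4 log2 fold changes were between -0.92 (Dlgap5) and -0.49 (Nusap1), with adjusted p between 0.199 and 0.492 by edgeR.

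All 3 cytokinesis genes fell without knockout library 3, where 22.8% of all genes tested were called lower. Their drop in library 3 was smaller than the median of the set for 2 of them. Ect2, the exchange factor that activates RhoA at the cleavage furrow, had 85.3, 93.0 and 19.0 CPM in knockout, against 135, 144 and 144 CPM in control. It fell 1.58-fold without library 3, with a log2 fold change of -0.66 (SE 0.0932, adjusted p = 0.000755 by edgeR). The groups of Ect2 did not overlap, nor did those of the other 2 genes. Anln, which encodes the furrow scaffold anillin, had 259, 240.0 and 79.4 CPM in knockout, against 321, 324 and 328 CPM in control. It fell 1.3-fold, with a log2 fold change of -0.38 (SE 0.0854, adjusted p = 0.00719 by edgeR). Prc1, which bundles the microtubules of the central spindle, had 158, 149 and 55.6 CPM in knockout, against 194, 195 and 189.7 CPM in control. It fell 1.25-fold, with a log2 fold change of -0.33 (SE 0.0857, adjusted p = 0.0141 by edgeR). In library 3, Prc1 and Anln were 3.46-fold and 4.09-fold below their control means and Ect2 7.43-fold, where the median of the 35 genes was 6.18-fold. With it kept, the 3 genes had log2 fold changes between -1.10 (Ect2) and -0.67 (Prc1), and none passed (adjusted p between 0.15 and 0.2 by edgeR).

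Of the mitotic chromosome genes, Top2a fell and Mki67 did not pass. Top2a, the topoisomerase that untangles sister chromatids, had 668, 557 and 112 CPM in knockout, against 828, 840.3 and 882 CPM in control. It fell 1.39-fold without library 3, with a log2 fold change of -0.47 (SE 0.0985, adjusted p = 0.00493 by edgeR). Mki67, which encodes the proliferation antigen Ki-67, had 389.6, 297 and 48.3 CPM in knockout, against 420.4, 341 and 438 CPM in control. Knockout library 1 lay within the control range of Mki67 and library 2 below it, and the log2 fold change without library 3 was -0.22 (95% interval -0.58 to 0.14, adjusted p = 0.275 by edgeR). In library 3 they were 7.6-fold and 8.28-fold below their control means. Across all libraries the log2 fold change was -0.93 (SE 0.578, adjusted p = 0.249 by edgeR) for Top2a and -0.71 (SE 0.653, adjusted p = 0.433 by edgeR) for Mki67.

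The depth of the drop in knockout library 3 varied among the members. Compared with the control mean it was at least 4-fold for 29 of 35 genes (82.9%), as for 9.14% of all genes tested. It was at least 8-fold for 8 and at least 10-fold for 4, namely Birc5, Bub1, Foxm1 and Espl1. For those deeper limits no share over all genes was computed. The 6 genes below 4-fold were Tpx2, Prc1, Cdc25c, Bub3, Cdc25b and Pttg1. The smallest count of any member in library 3 was 86, that of Ttk. Against knockout libraries 1 and 2, which carry the same label, the median drop was 5.16-fold. In 28 of 35 genes (80%) library 3 was under a 4th of the mean of those 2 libraries, as in 462 of all 12293 genes tested (3.76%), and over all genes the median log2 ratio was 0.002. These are comparisons of single libraries and were not tested.

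**Figure D4:**
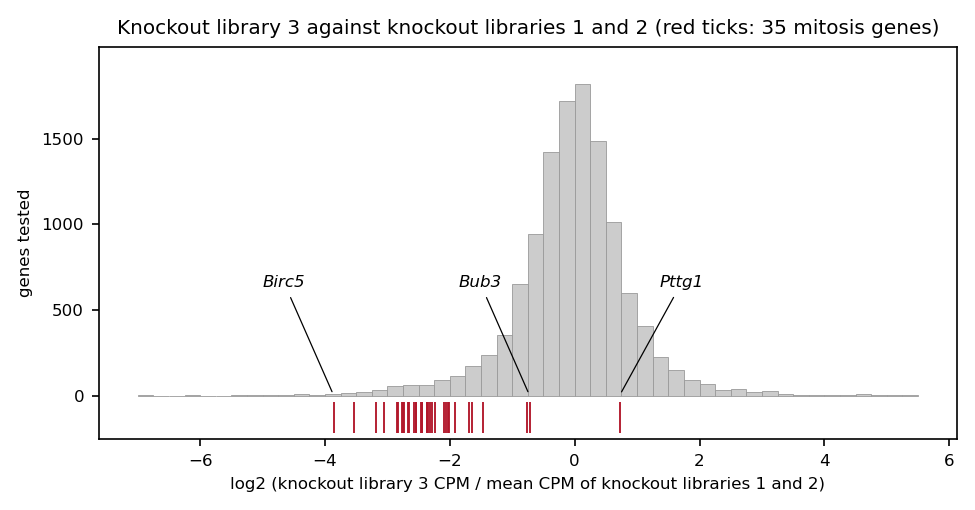
Number of genes tested (y axis, grey bars) by log2 ratio of the CPM in knockout library 3 to the mean CPM of knockout libraries 1 and 2 (x axis), over the 11972 genes above 0 in every library; red ticks under the bars are the 35 mitosis and G2/M genes. The lowest tick is Birc5 at -3.86, Bub3 and Cdc25b lie near -0.72 and -0.76, and Pttg1 lies at 0.72.

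Other genes of the cell division machinery, chosen by function, were lower in knockout library 3 than in control by the median of each of the 6 lists, least so for the anaphase-promoting complex. In that library 25 of 38 other G2/M transcripts and 19 of 36 other kinetochore and passenger genes were under a 4th of the mean of knockout libraries 1 and 2, and so were 18 of 35 replication genes. Over all genes tested the share that low was 3.76%. Median log2 ratios to the control mean were -0.23, -0.26 and -2.59 for the G2/M transcripts in knockout libraries 1, 2 and 3, -0.21, -0.26 and -2.40 for the kinetochore genes and -0.042, -0.077 and -2.06 for the replication genes. Subunits and regulators of the anaphase-promoting complex, whose core genes are made throughout the cycle, stood at 0.068, 0.13 and -0.35, and 1 of 17 was that low. Cohesin and condensin genes stood at -0.10, -0.063 and -0.77 (6 of 18 that low). The list of G2/M brakes with DREAM and MuvB genes, which also holds activators, stood at -0.20, -0.31 and -1.10 (3 of 25). The G2/M list had 40 symbols, of which the older names H2afz and Fam64a have no row in the table. Of the 462 genes tested that were that low, 100 (21.6%) were members or belonged to the 6 lists.

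**Figure D5:**
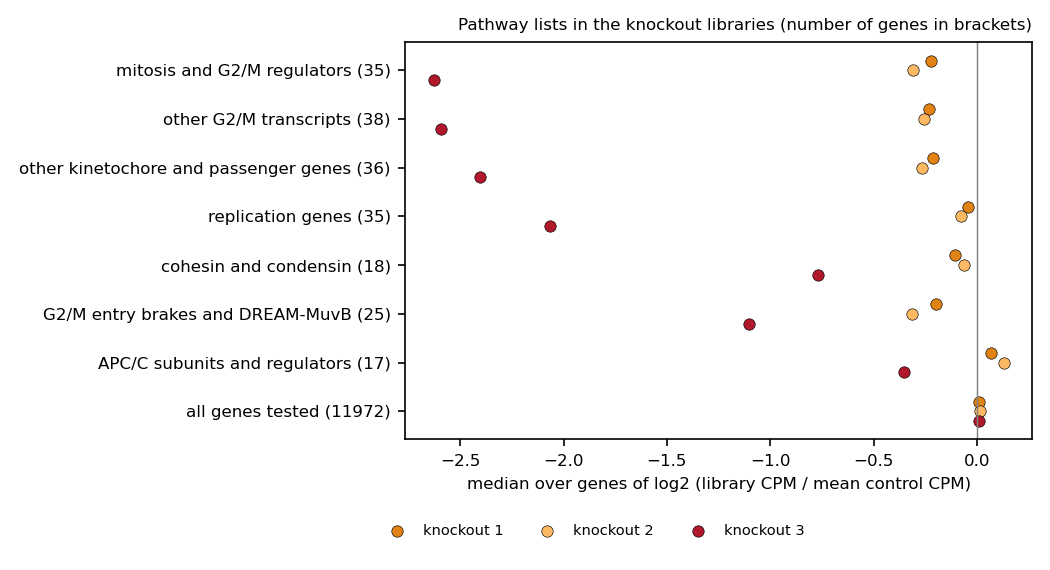
Median over the genes of each list of log2 CPM over the control mean (x axis) in knockout libraries 1, 2 and 3, for the 35 members, 6 lists of related genes and all genes tested, with the number of genes in brackets. Libraries 1 and 2 lie between -0.31 and 0.13, library 3 lies lowest for the members at -2.63, and over all genes tested the 3 libraries lie together at 0.013, 0.017 and 0.0099.

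In 4 of the 6 lists at most 2 genes passed with all libraries, where 15.4% of all genes tested were called lower and 20.3% higher. Without library 3, 22.8% of all genes were called lower and 25.5% higher. Of 38 other G2/M transcripts, 1 fell and 0 rose; without library 3 there were 17 lower and 4 higher. The gene called with all libraries was Ckap5, a microtubule polymerase, with 166, 136 and 103 CPM in knockout, against 199, 199 and 214 CPM in control (adjusted p = 0.0477 by edgeR). For the 36 kinetochore and passenger genes the counts were 2 lower and 0 higher with all libraries, 16 lower and 2 higher without library 3. Zwint, a kinetochore protein, had 133, 127 and 104 CPM in knockout, against 184, 209 and 194 CPM in control (adjusted p = 0.0102 by edgeR), and Zw10, its partner in checkpoint recruitment, passed narrowly (0.0492). Among 18 cohesin and condensin genes 2 were lower and 0 higher, and 4 lower and 3 higher without library 3. Wapl and Pds5a, which release cohesin from chromatin, were the 2: the log2 fold change was -0.44 for Wapl (adjusted p = 0.0209 by edgeR) and -0.64 for Pds5a (0.0218). Without library 3 the log2 fold change, with its adjusted p by edgeR, was -0.43 (0.0124) for Ckap5, -0.59 (0.00155) for Zwint, -0.44 (0.0239) for Zw10, -0.45 (0.0054) for Wapl and -0.51 (0.00427) for Pds5a. Of these 5 genes Zwint passed without any 1 library. Ckap5, Zw10, Wapl and Pds5a lost the call without control library 1, 2 or 3 and without knockout library 2 (adjusted p between 0.0513 and 0.145).

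The 35 replication genes held 0 called lower and 1 higher, against 7 lower and 2 higher when library 3 was left out, which for the decreases is near the 22.8% of all genes. The gene that rose was Rrm2, a ribonucleotide reductase subunit, with 786, 879 and 376 CPM in knockout, against 322, 364 and 311 CPM in control (adjusted p = 0.0419 by edgeR). Rrm2 did not pass when any 1 library other than knockout library 3 was left out (adjusted p between 0.0939 and 0.142). Of 17 genes of the anaphase-promoting complex 2 fell and 2 rose (3 lower and 5 higher without library 3). Over all genes the shares were 15.4% lower and 20.3% higher with all libraries and 22.8% and 25.5% without library 3. The subunits Anapc16 and Anapc2 rose, by log2 fold changes of 0.57 and 0.36, and Anapc7 and Anapc15 fell, with -0.38 and -0.90 (adjusted p = 0.0132, 0.0356, 0.0362 and 0.0408 by edgeR). Anapc2 and Anapc7 lost the call without any 1 library other than knockout library 3 (adjusted p between 0.0569 and 0.174). Anapc15 lost it without any control library or knockout library 1 (0.0964, 0.119, 0.109 and 0.062), and Anapc16 without control library 1 or 3 (0.0609 and 0.0804). Without library 3 the log2 fold change, with its adjusted p by edgeR, was 1.33 (3.52e-05) for Rrm2, 0.52 (0.0049) for Anapc16, 0.36 (0.00925) for Anapc2, -0.40 (0.0111) for Anapc7 and -0.65 (0.00397) for Anapc15.

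Regulators of G2/M entry and of G2/M genes were called in both directions, as all genes were. Their list also holds activators such as Cdc25a, so its counts give no direction for the brakes alone. Of 25 G2/M brakes and DREAM and MuvB genes, 5 fell and 3 rose, and 8 were lower and 4 higher without library 3, where 15.4% of all genes were lower and 20.3% higher with all libraries and 22.8% and 25.5% without library 3. Rbl2, which encodes p130, the pocket protein of the repressive DREAM complex, had 45.7, 59.1 and 95.4 CPM in knockout, against 30.8, 27.7 and 30.7 CPM in control. Tfdp2, a DNA-binding partner of E2F proteins, had 15.9, 19.0 and 28.4 CPM in knockout, against 11.1, 9.48 and 8.81 CPM in control. Both rose, by a log2 fold change of 1.17 for Rbl2 (adjusted p = 0.0183 by edgeR) and 1.1 for Tfdp2 (0.0174). Both were highest in knockout library 3, as were 6 of the 25 genes of this list and 33.7% of all genes tested. The MuvB subunit Lin37 rose too, by 0.70 (0.0393). Another MuvB subunit, Lin54, fell, with a log2 fold change of -0.71 (adjusted p = 0.0298 by edgeR) and of -0.54 without library 3 (0.00783). The call of Lin54 was lost without control library 1, 2 or 3 or knockout library 2 (adjusted p between 0.067 and 0.0995 by edgeR). Sfn, which encodes 14-3-3 sigma, a G2 brake of epithelial cells, had 18.4, 7.69 and 6.12 CPM in knockout, against 92.1, 98.7 and 91.2 CPM in control. Sfn fell by 3.13 on the log2 scale, the E2F family member E2f5 by 0.78 and the CDK-activating phosphatase Cdc25a by 1.20 (adjusted p = 0.00257, 0.0127 and 0.013 by edgeR). Sfn passed without any 1 library. Rbl2 and Lin37 lost the call without control library 1, 2 or 3 (adjusted p between 0.0635 and 0.149) and Lin37 also without knockout library 2 (0.0609). Tfdp2 lost it without control library 2 or 3 (0.078 and 0.0818), E2f5 without control library 1 or 3 (0.0579 and 0.0564) and Cdc25a without control library 2 (0.0521). Without library 3 the log2 fold change, with its adjusted p by edgeR, was 0.82 (0.00162) for Rbl2, 0.83 (0.00466) for Tfdp2, 0.49 (0.0225) for Lin37, -2.86 (0.00413) for Sfn, -0.68 (0.00467) for E2f5 and -0.98 (0.00118) for Cdc25a.

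Mybl2, which encodes B-MYB and belongs to the same list, was picked after its values were seen. It had 68.7, 62.2 and 5.82 CPM in knockout, against 131, 163 and 143 CPM in control. It did not pass with all libraries (adjusted p = 0.132 by edgeR) and fell 2.23-fold without library 3 (adjusted p = 0.000175 by edgeR). The CDK inhibitor gene Cdkn1a, picked in the same way, had 89.3, 37.2 and 123 CPM in knockout, against 70.7, 36.3 and 49.8 CPM in control, with knockout library 3 highest and the groups overlapping (adjusted p = 0.284 by edgeR).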

How the data were processed

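RNA-seq of 3 knockout and 3 control libraries of MOC2 cells was analysed from 1 table of counts per gene symbol. The authors deposited whole-number counts; STAR 2.7.1a, featureCounts and hg38 are named, with no role, per the submitters' processing notes, although the rows carry mouse symbols. Annotation and strand setting were not given in the sources used here, so reads shared with near-identical copies or antisense genes could not be checked. The table has 1704 rows at 0 in control library 1 but counted in another, and their 3375 nonzero values are all multiples of 11; these rows, none a member, were divided by 11. The titles gave each library's group. Every pair of libraries of a group differed by more than counting noise.

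Counts were tested with edgeR 4.0.16 under R 4.3.3 (genes kept by filterByExpr, TMM scaling, the robust quasi-likelihood test, Benjamini-Hochberg over all genes tested, threshold 0.05), and with DESeq2 1.42.0, limma 3.58.1 (voom), other scalings, no filter, a replicate block and each library left out as alternatives. CPM use TMM-scaled totals; each standard error is the fold change over the root of the test statistic. The procedure was checked on simulated counts. Members and lists were chosen with earlier results of these data known, so no list was tested as a set. Named list genes are up to 3 per direction with the smallest p among those past the threshold. Lin54 was named in addition, beside Lin37. No mouse sequence was used here.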

Additional observations from a re-analysis of the deposited data

How the results depend on the processing

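The count of 0 members called with all libraries held under the values as deposited, the table without the divided rows, limma-voom, RLE scaling, library totals, no filter, a replicate block and the omission of any 1 library other than knockout library 3. DESeq2 called 1 member lower, and without knockout library 3 the counts were 14 lower and 1 higher; leaving out 1 library thus gave 0 to 14 lower and 0 to 1 higher. The median log2 fold change of the members lay between -1.02 and -0.26 when 1 library was left out, the upper value without knockout library 3, and was -1.01 with the replicate block and -1.05 with limma-voom. All genes changed numbered 2312 to 6021 when 1 library was left out, with 2685, 2312 and 2358 without control libraries 1, 2 and 3. Without knockout library 3, 12 to 14 members were lower and 0 to 1 higher when a control library was left out as well; these omissions were added after seeing the data, as were DESeq2 (18 lower), limma-voom (15), RLE scaling (18) and library totals (15), each with 1 higher. No member changed direction where either value was called. Whether the numbers in the titles pair the libraries could not be settled with 3 libraries per group. Deviations of same-numbered libraries from their group means correlated at -0.049, 0.26 and 0.022, and those of differently numbered libraries between -0.25 and 0.19. The replicate block, which called 3591 genes and 0 members, is therefore an alternative only. All scalings moved the median of all genes by under 0.1 on the log2 scale. The smallest count of a member was 86, so depth limits these values little.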
